A study of Rattus norvegicus with 5 samples.

Results

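The genes described here are 9 plasma proteins that hepatocytes secrete, Alb, Afp, Ahsg, Tf, Ttr, Apoa1, A2m, Serpina1 and Fgb, together with Hnf4a, a transcription factor of the hepatocyte program. They were chosen by name, to ask how hepatocyte-like the studied line is, and each was read on every probe whose accession belongs to it in the RefSeq table for rat. All 10 genes were on the array, on 11 probes, among 15069 named genes with a value on all 5 arrays. A2m has 2 probes and the other genes have 1 each.

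Hepatocytes make most of the proteins of blood plasma, and mRNAs such as that of albumin are among the most abundant in adult liver. Their transcription depends on a network of liver-enriched factors in which Hnf4a, the Foxa proteins and the C/EBP proteins bind the promoters of secreted protein genes and of one another. Dedifferentiated hepatic cells typically lose albumin and other adult products, and Afp marks the fetal liver.

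The study addresses the role in hepatic transcription of Tmub1, a membrane protein that carries a ubiquitin-like domain. It used BRL-3A, a line derived from Buffalo rat liver that the labels describe as normal rat hepatocytes and that is known for secreting insulin-like growth factor 2. The cells were grown in medium with 10% fetal bovine serum and fell into 5 groups with 1 single-colour Agilent array each. The groups were cells given a Tmub1 overexpression lentivirus, cells given a Tmub1 knockdown lentivirus, cells given the negative control virus of each of these, and normal cells without virus. All transduced cells were harvested at 48 h, all groups came from the same line, and 1 µg of total RNA per sample was labelled. The vector promoters, the knockdown sequence and the nature of the control viruses are not given in the sources used here, nor is it stated whether the groups were separate cultures. The normal array was scanned on a different day from the 4 transduced arrays, so that virus and scan day cannot be told apart in any comparison with normal cells. With 1 array per group there was no replicate check and no p-value is given. Intervals are 95% intervals from the scanner's spot error and cover the reading of the spots alone.

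Each array gave 42877 spots and no saturated spot, with a median processed signal between 116.4 and 356.2 intensity units. Levels below are log2 processed signals minus the array's own 75th percentile, so that 0 is the 75th percentile of that array. They compare 1 probe between arrays and not different genes. The targeted gene, Tmub1, stood at 0.44 with overexpression, -1.42 with knockdown, 0.37 in the overexpression negative control, 0.45 in the knockdown negative control and 0.08 in normal cells. The library labelled overexpression therefore showed 1.05-fold the Tmub1 signal of its negative control, and each direction given below for it rests on the label. Whether the probe reads the transcript of the vector is not stated in the labels. In a bulk sample, fewer cells of a type and less RNA per cell cannot be told apart.

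The hepatocyte products were only in part detected in BRL-3A cells. Of the 10 genes, the scanner software called 7 well above background with overexpression, 8 with knockdown, 8 in the overexpression negative control, 7 in the knockdown negative control and 9 in normal cells. The shares over all named genes were 77.6%, 84.1%, 73.1%, 78.2% and 88.6% in the same order, so the 10 genes were detected about as often as an average gene of the array. Ahsg, Tf, A2m, Serpina1, Fgb and Hnf4a were well above background on all 5 arrays, which was also true of 71% of all named genes. Albumin, the defining product of the adult hepatocyte, was well above background on 2 of 5 arrays, and transthyretin and apolipoprotein A1 were each detected on 2. By the scanner software's call, no array had albumin, transthyretin and apolipoprotein A1 all above background. By that call, these markers of an adult hepatocyte thus go in part against the label of hepatocyte in every group, while Ahsg, Tf, A2m, Serpina1, Fgb and Hnf4a do not. With detection at a signal of at least 2.6 times its scanner error, all 10 genes were detected with knockdown and in normal cells. The cells are called BRL-3A cells below.

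Beside them, Igf2 and the insulin-like growth factor binding protein Igfbp2, known products of this line, were far above background on every array. Igf2 had log2 levels of 8.16 with overexpression and 6.21 with knockdown, against 8.39 in the overexpression negative control, 7.79 in the knockdown negative control and 7.62 in normal cells. Igfbp2 had levels of 7.66 and 6.29 with overexpression and knockdown, against 7.84, 7.05 and 7.05 in the overexpression negative control, the knockdown negative control and normal cells. Both were lowest with the knockdown virus, Igf2 by 3.0-fold against its negative control and Igfbp2 by 1.70-fold. A second Igfbp2 probe disagreed, with 5.08 on the knockdown array and its lowest level, 4.66, in the overexpression negative control.

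**Figure D1:**
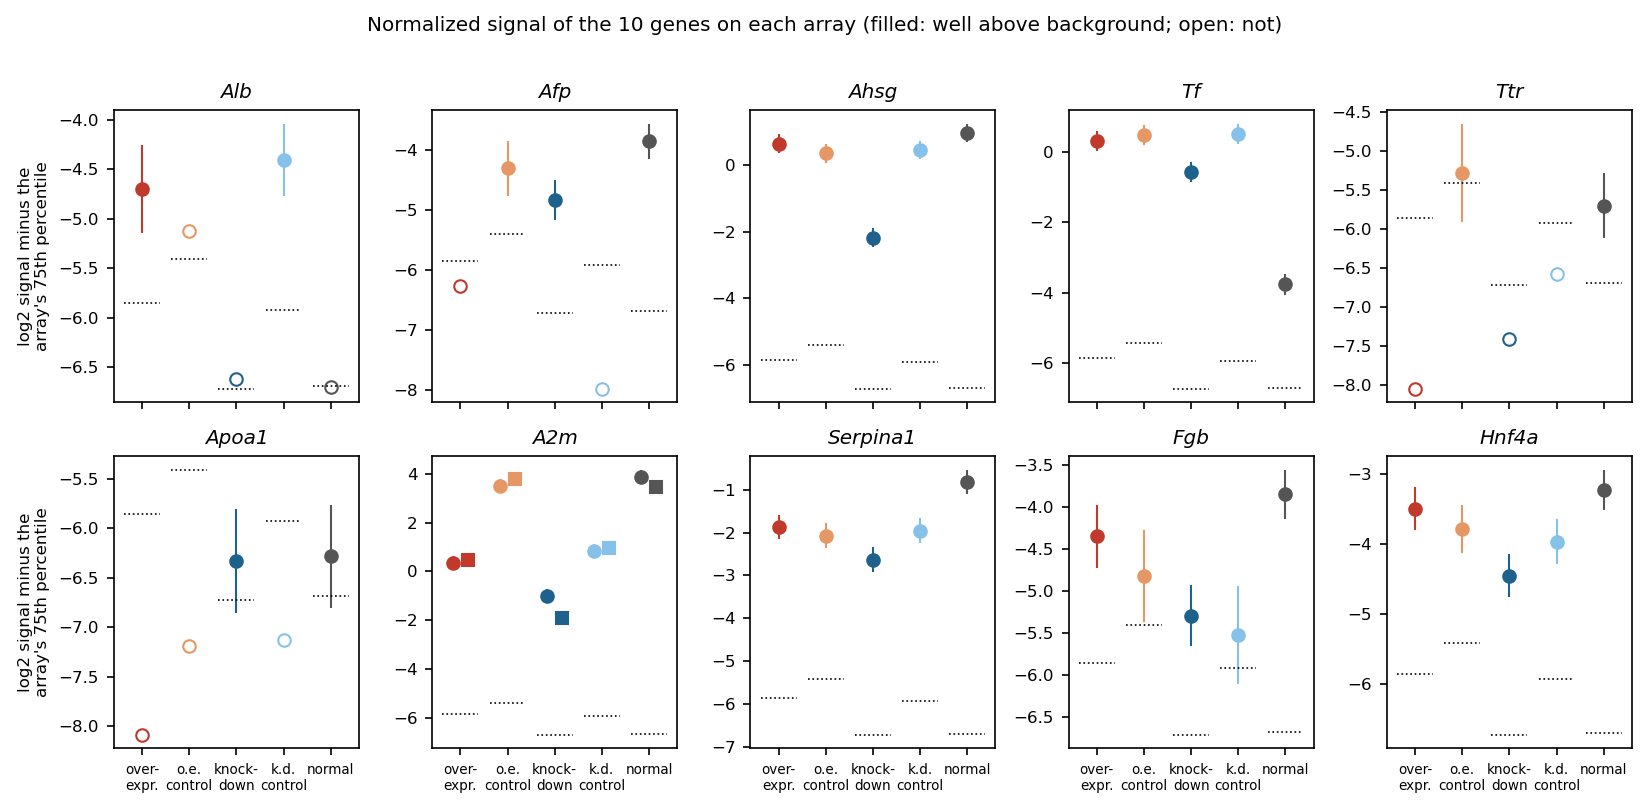
Normalized log2 signal (y axis, each panel with its own range) of the 10 genes on the 5 arrays (x axis; o.e. is overexpression, k.d. is knockdown). Filled points were well above background and carry 95% intervals from scanner error, open points were not, dotted lines mark each array's lowest value well above background, and squares are the second A2m probe; Tf is low in normal cells at -3.76, and Ahsg is low with knockdown at -2.19.

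Promoter stretches from RefSeq (build GRCr8) are shown for the neighbouring pair Alb and Afp, for Ahsg and Tf, whose levels set 1 array apart, and for Fgb, whose window holds the most matches. Each runs from 200 to 41 bases before an annotated transcription start, 5′ to 3′ on the gene's strand. Capitals mark a TATA box, TATAAA, in Tf and a C/EBP pattern, TTGC and AAT with any 3 bases between, in Fgb. The stretches of Alb, Afp and Ahsg hold no match to the 5 motifs reported.
Alb, chr14:17907020-17907179, minus strand: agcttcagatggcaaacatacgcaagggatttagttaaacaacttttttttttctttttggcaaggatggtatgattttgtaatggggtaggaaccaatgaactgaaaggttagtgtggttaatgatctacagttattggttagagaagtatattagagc
Afp, chr14:17875686-17875845, minus strand: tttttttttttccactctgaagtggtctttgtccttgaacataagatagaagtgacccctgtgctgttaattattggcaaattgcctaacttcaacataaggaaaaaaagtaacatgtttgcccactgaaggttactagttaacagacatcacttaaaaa
Ahsg, chr11:91632624-91632783, minus strand: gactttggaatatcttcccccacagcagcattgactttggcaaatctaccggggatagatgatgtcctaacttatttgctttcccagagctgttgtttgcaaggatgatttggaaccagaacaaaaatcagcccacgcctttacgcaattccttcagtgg
Tf, chr8:112695417-112695576, minus strand: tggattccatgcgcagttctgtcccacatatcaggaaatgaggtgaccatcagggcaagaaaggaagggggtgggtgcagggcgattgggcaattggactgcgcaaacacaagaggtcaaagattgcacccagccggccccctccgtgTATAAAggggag
Fgb, chr2:170700916-170701075, minus strand: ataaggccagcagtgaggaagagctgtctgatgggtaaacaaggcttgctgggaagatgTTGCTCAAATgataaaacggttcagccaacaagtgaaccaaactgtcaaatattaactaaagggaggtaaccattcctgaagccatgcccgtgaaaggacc

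Windows from 250 bases before to 50 after the start were available for 8 of the 10 genes, 9 windows in all, with Hnf4a having 2. A2m and Apoa1 are named only. The C/EBP pattern was in the Fgb window, at 132 to 141 bases before the start, and in 2.16% of all 33469 promoter windows. TATAAA was in the Afp window, at 32 to 37 bases before the start, in the Tf window, at 47 to 52, and in 14.2% of all. TTCNNNGAA, a pattern bound by STAT factors, was in the Fgb window, at 215 to 223 bases before the start, and in 8.87% of all. The Hnf4 pattern CAAAGTCCA and the C/EBP palindrome TTGCGCAA, found in 0.391% and 0.17% of all windows, were in none of the 9, which says only that these letters are not there. All motifs were searched on both strands, and a match is a description of the sequence.

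Among serum carriers, transferrin was detected on every array, and albumin, Afp and transthyretin on some. Albumin, the main carrier protein of plasma, stood at a log2 level of -4.70 with overexpression and was below background with knockdown (-6.62), while it was below background in the overexpression negative control (-5.13), at -4.40 in the knockdown negative control and below background in normal cells (-6.70). The readings behind these levels were 25.7, 14.4, 15.9, 32.5 and 12.9 intensity units in the same order. Albumin was thus dim where it was detected at all, and its levels were highest with overexpression and in the knockdown negative control. The readings with overexpression and in its negative control had scanner errors of 4.06 and 3.99, so their order is uncertain. Afp, the albumin-like protein of fetal liver and yolk sac, was below background with overexpression (-6.27) and at -4.84 with knockdown, against -4.30 in the overexpression negative control, below background in the knockdown negative control (-7.98), and -3.86 in normal cells. Alb and Afp lie side by side on chromosome 14, as the stretches above show, and each was above background on an array where the other was not: Alb without Afp with overexpression and in the knockdown negative control, Afp without Alb on the remaining 3. That split rests on the scanner software's call. Alb read 15.9 in the overexpression negative control and 14.4 with knockdown, above the lowest detected signals there, 13.07 and 13.43. When detection asked for a signal at least 2.6 times its scanner error, all 10 genes were detected with knockdown and in normal cells. Alb and Afp were then both detected on every array but the knockdown negative control, where Afp read 2.72 units with a scanner error of 2.70. With overexpression Afp passed narrowly, at 8.61 units with an error of 3.28.

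Transferrin, the iron carrier of plasma, had log2 levels of 0.32 with overexpression and -0.56 with knockdown, against 0.49 in the overexpression negative control, 0.52 in the knockdown negative control and -3.76 in normal cells. The 4 transduced arrays spanned 2.12-fold and the normal array lay below all of them. Transthyretin, the carrier of thyroid hormone and of retinol with its binding protein, was above background in the overexpression negative control, at -5.28, and in normal cells, at -5.70. It was below background with overexpression (-8.05), with knockdown (-7.40) and in the knockdown negative control (-6.58). Apoa1, the main protein of high-density lipoprotein, was above background with knockdown, at -6.33, and in normal cells, at -6.28, and below it with overexpression (-8.09), in its negative control (-7.18) and in the knockdown negative control (-7.13).

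Among protease inhibitors and acute phase proteins, A2m varied most. Alpha-2-macroglobulin, a broad protease inhibitor and in the rat a major acute phase protein, had log2 levels of 0.33 with overexpression and -1.02 with knockdown, against 3.52 in the overexpression negative control, 0.85 in the knockdown negative control and 3.90 in normal cells. Its other probe read 0.46, -1.93, 3.79, 0.98 and 3.47 in the same order. Both probes put the overexpression negative control and normal cells high and the other 3 arrays low, and the first spanned 30.2-fold over the 5 arrays. They disagreed on which of the high arrays was higher.

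Ahsg, or fetuin-A, an inhibitor of calcification secreted by fetal and adult liver, stood at 0.64 with overexpression and -2.19 with knockdown, against 0.35 in the overexpression negative control, 0.45 in the knockdown negative control and 0.96 in normal cells. Knockdown was the low array, and the 3 control arrays spanned 1.53-fold. Serpina1, alpha-1-antitrypsin, which inhibits neutrophil elastase, had levels of -1.87 and -2.63 with overexpression and knockdown, against -2.07 in the overexpression negative control, -1.95 in the knockdown negative control and -0.82 in normal cells. Fgb, the beta chain of fibrinogen, had levels of -4.35 with overexpression and -5.29 with knockdown, against -4.82, -5.52 and -3.85 in the overexpression negative control, the knockdown negative control and normal cells. Both were highest in normal cells.

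Hnf4a, the nuclear receptor that activates many of these genes in hepatocytes, had the narrowest range of the 10 over all 5 arrays. Its log2 level was -3.50 with overexpression and -4.45 with knockdown, against -3.79 in the overexpression negative control, -3.97 in the knockdown negative control and -3.23 in normal cells. It was well above background on all 5 arrays and spanned 2.33-fold, or 1.94-fold over the 4 transduced arrays, where Serpina1 spanned 1.70-fold. The array has 1 probe for it, and which of the 2 annotated starts that probe reports on was not tested.

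Other liver transcription factors were in part below background, more so on the transduced arrays, as were all named genes. Of 20 on the array, 13 were well above background with overexpression, 15 with knockdown, 11 in the overexpression negative control, 12 in the knockdown negative control and 18 in normal cells. These are 65%, 75%, 55%, 60% and 90%, against 77.6%, 84.1%, 73.1%, 78.2% and 88.6% of all named genes in the same order, and 18 of the 20 are named here. Foxa3 was above background in normal cells, at -4.71, and below it on all 4 transduced arrays. Prox1 and Nr0b2, the repressor induced by the bile acid receptor, were below background on all 5 arrays, Ppara and Creb3l3 were above it on 2, Nr5a2 on 3 and Onecut1 on 4. The 11 factors Foxa1, Foxa2, Cebpa, Cebpb, Nr1h4, Nr1i2, Nr1i3, Gata4, Gata6, Hhex and Tbx3, were above background on every array. Foxa2, a pioneer factor of endoderm, had log2 levels of 0.26 with overexpression and 0.23 with knockdown, against 0.26, -0.16 and -0.66 in the overexpression negative control, the knockdown negative control and normal cells.

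Of 59 other secreted plasma proteins on the array, 35 were above background with overexpression, 39 with knockdown, 30 in the overexpression negative control, 33 in the knockdown negative control and 46 in normal cells. Only 27, or 45.8%, were above it on all 5 arrays, against 71% of all named genes. The share was 47.1% for 34 hepatocyte enzymes and transporters and 55% for the 20 transcription factors. For 21 acute phase and IL6 signalling genes, A2m and Fgb among them, it was 85.7%. For 14 cholangiocyte and progenitor markers it was 64.3%, and for 10 endothelial markers 60%. Among 20 markers of stellate cells and fibroblasts it was 80%, and Col1a1, the main fibrillar collagen chain, ranged from 6.69 to 7.65 over the 5 arrays. Of 14 macrophage and leukocyte markers, 64.3% were above background on all 5 arrays, and the T cell marker Cd3e was below it on every array.

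**Figure D2:**
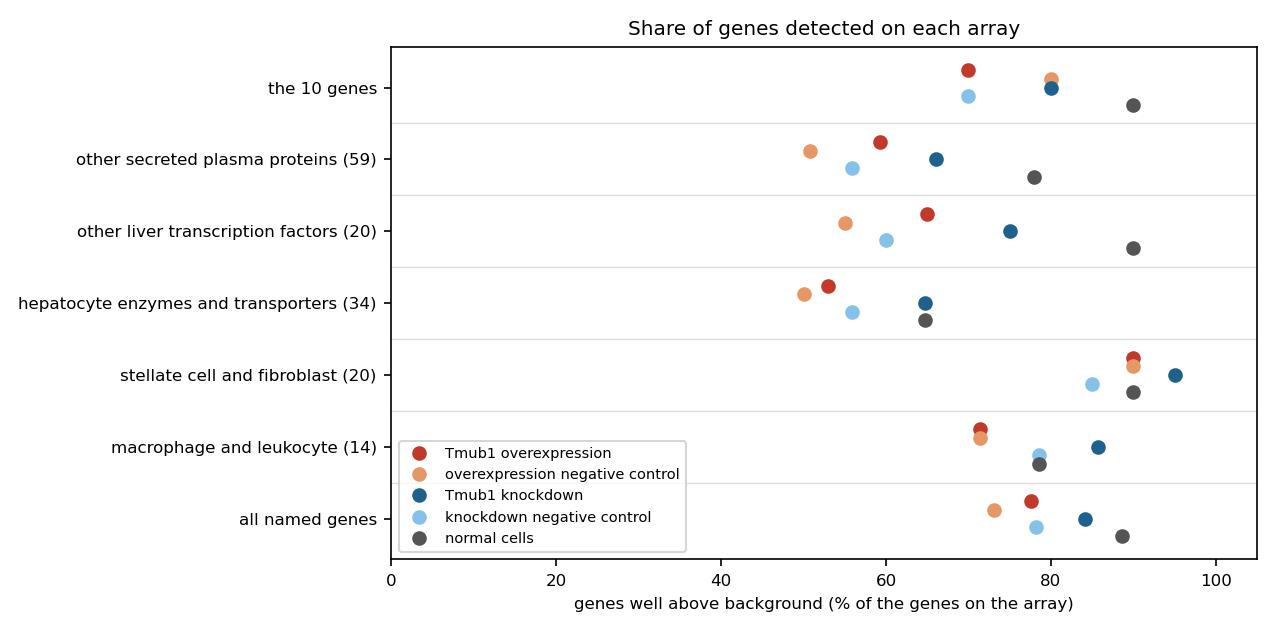
Share of genes well above background (x axis, percent) on each of the 5 arrays (colours), for the 10 genes, 5 other lists with the number of genes on the array in brackets, and all named genes (y axis). Secreted plasma proteins, liver transcription factors and hepatocyte enzymes lie below all named genes on the transduced arrays, at 50% to 75%, while stellate cell and fibroblast markers lie at 85% to 95%.

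Overexpression was compared with its own negative control virus to ask whether the Tmub1 vector moved hepatocyte products. A gene was called when the brighter of its values was detected well above background and lay at least 2.5-fold from the dimmer one, a threshold taken from the series' design text. Where the dimmer reading was itself below background, it was set to the lowest level that counted as detected on that array, and the fold is then a lower bound. An undetected reading already above that level was used as it stood, and the fold is then a plain ratio and not a bound. A2m and Afp were lower with overexpression, and none of the 10 genes was called higher. That is 2 of the 9 readable genes, those above background on at least 1 of the arrays compared, against 2.71% of all 11798 genes tested, of which 1.71% were called higher and 1% lower. A2m had a log2 difference of -3.19 (-3.59 to -2.79), or 9.13-fold lower, and its other probe gave 10.0-fold. Afp was at least 2.93-fold lower, a bound that shrank to a log2 difference of -0.51 with normexp background correction.

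None of the remaining genes was called with overexpression against its negative control. Hnf4a had a log2 difference of 0.29 (-0.17 to 0.75), Ahsg of 0.29 (-0.11 to 0.69), Tf of -0.17 (-0.57 to 0.23), Serpina1 of 0.20 (-0.20 to 0.61) and Fgb of 0.48 (-0.19 to 1.14). All of these intervals include 0, and for Fgb the sign turned with normexp, to -0.03. Albumin was 1.35-fold higher, short of the threshold and not a lower bound. That fold is a ratio of 25.7 to an undetected 15.9 intensity units, with scanner errors of 4.06 and 3.99. Transthyretin was at least 1.49-fold lower, a lower bound short of the threshold. Taken without the floor, the Ttr reading, itself below background with overexpression, would be 6.83-fold lower. Apoa1 was below background on both arrays.

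The A2m difference depended on the control array. Against the knockdown negative control A2m lay at a log2 difference of -0.51, 1.43-fold lower with overexpression on both probes, and 0 of the 7 readable genes passed 2.5-fold, against 4.09% of all genes, 1.93% higher and 2.16% lower. Against normal cells A2m was 11.8-fold lower and Afp at least 4.0-fold lower with overexpression, while Tf was 16.8-fold and Alb at least 3.98-fold higher, where 16.6% of all genes were called, 7.27% higher and 9.32% lower. The 2 negative controls themselves differed for A2m: the overexpression negative control was 6.39-fold above the knockdown negative control on the first probe and 7.0-fold on the other. Afp was at least 3.07-fold higher in the overexpression negative control than in the knockdown negative control. These were the 2 calls among 9 readable genes between the control viruses, where 8.53% of all genes were called, 3.37% higher and 5.16% lower in the overexpression negative control.

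**Figure D3:**
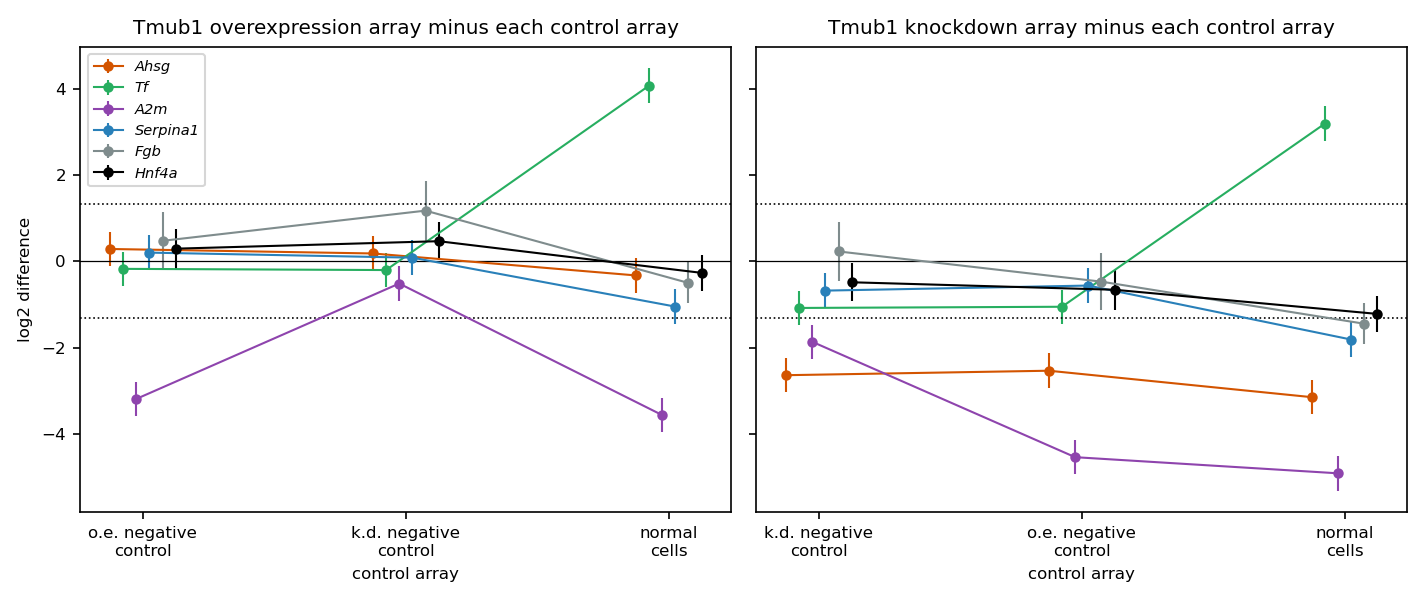
Log2 difference (y axis) of the overexpression array (left) and the knockdown array (right) from each control array (x axis), for the 6 genes above background on all arrays, with 95% intervals from scanner error and dotted lines at 2.5-fold. A2m with overexpression lies at -3.19 against its own negative control and at -0.51 against the other, while Ahsg with knockdown lies between -3.15 and -2.54 against all 3.

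Other hepatic lists held few calls in the same comparison. Of 35 other secreted plasma proteins tested 0 were higher and 1 lower with overexpression, the protease inhibitor Serpina3n at 3.17-fold lower, and the median log2 difference was -0.13, against 0.00 over all genes. None of 13 liver transcription factors and none of 18 hepatocyte enzymes and transporters passed the threshold. Among 19 acute phase and IL6 signalling genes A2m itself was the single call, and the cytokine Il6 and the A2m activator Stat3 had log2 differences of 0.58 and 0.10. In the cholangiocyte and progenitor list the fetal liver gene Dlk1 was lower, with a log2 difference of -1.86, as 1 of 10 tested.

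Knockdown was compared with its own negative control virus. Ahsg, A2m and Alb were lower with knockdown and none of the 10 genes was called higher. These were 3 of the 9 readable genes, against 18.4% of all 12791 genes tested, of which 8.46% were called higher and 9.98% lower. The median difference over all those genes was -0.21, and each value below is to be read against it. Among all called genes 45.9% were higher with knockdown, a share that became 71.4% when the 75th percentile was taken over probes detected on all 5 arrays, and 34.2% with normexp.

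Ahsg had a log2 difference of -2.64 (-3.04 to -2.24), or 6.24-fold lower. It kept this call under every scaling tried, between -2.76 and -2.33, and it was also 5.80-fold below the overexpression negative control and 8.88-fold below normal cells. A2m had a difference of -1.87 (-2.27 to -1.47), or 3.65-fold lower, with 7.52-fold on its other probe. A2m was 23.3-fold below the overexpression negative control and 30.2-fold below normal cells, so its direction held against all 3 controls while its size did not. Albumin was 4.66-fold lower, a ratio with an undetected knockdown reading and not a lower bound. Before scaling it read 14.4 units with knockdown and 32.5 in its negative control, on arrays with 75th percentiles of 1416.8 and 687.2. Albumin was below background in the overexpression negative control and in normal cells as well. With normexp the difference was -1.31, short of the threshold.

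Against the overexpression negative control the calls were Ahsg, A2m and Ttr, the last at least 2.72-fold lower with knockdown, 3 of 9 readable genes where 28.6% of all genes were called, 13.3% higher and 15.4% lower. Against normal cells Ahsg, A2m, Serpina1, at 3.52-fold, and Fgb, at 2.73-fold, were lower and Tf was 9.15-fold higher with knockdown, 5 of 9 readable genes where 30.1% of all genes were called, 11.3% higher and 18.9% lower.

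The remaining genes were not called against the knockdown negative control. Tf had a log2 difference of -1.08 (-1.48 to -0.68), or 2.12-fold lower, and Serpina1 of -0.68 (-1.08 to -0.28). Hnf4a had a difference of -0.49 (-0.93 to -0.04), and between -0.68 and -0.17 under the scalings tried, which is close to the median of all genes. Fgb had a difference of 0.23 (-0.46 to 0.92), with the sign turned to -0.44 by normexp. Afp was at least 2.13-fold higher with knockdown, a bound short of the threshold. It passed the threshold when the 75th percentile was taken over probes detected on all 5 arrays, at least 2.64-fold higher, and without the floor, at 8.87-fold. Against the other controls Afp turned, with log2 differences of -0.53 from the overexpression negative control and -0.98 from normal cells. For Apoa1 the knockdown value lay below the limit of its control array, and Ttr was below background on both arrays, so neither has a fold.

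**Figure D4:**
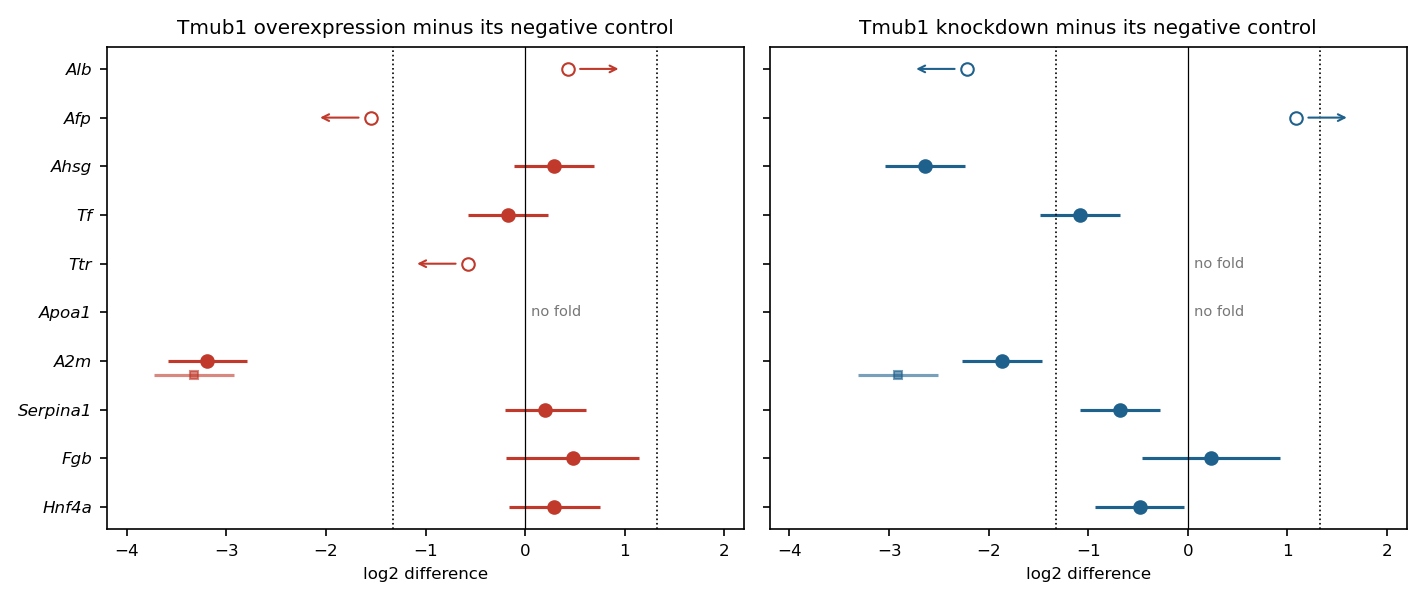
Log2 difference (x axis) of the overexpression array (left) and the knockdown array (right) from the negative control of the same virus for the 10 genes (y axis). Filled points are measured on both arrays and carry 95% intervals from scanner error, and squares are the second A2m probe. Open points with arrows are lower bounds, except for Alb, whose undetected readings were used as they stood. Genes marked "no fold" were too dim to compare, and dotted lines mark 2.5-fold. Ahsg lies at 0.29 with overexpression and -2.64 with knockdown, and A2m below -1.32, the line at 2.5-fold, in both.

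Of 40 other secreted plasma proteins tested, 2 were higher and 5 lower with knockdown than in its negative control, and their median was -0.67, against -0.21 over all genes. The complement protein C3 was 3.50-fold and the triglyceride-rich lipoprotein component Apoc3 3.0-fold higher. Apoc4 was 5.83-fold, the plasmin inhibitor Serpinf2 3.83-fold, Apoe, a ligand of lipoprotein receptors, 3.29-fold and Apoc1 3.0-fold lower. Under the percentile over detected probes the counts were 4 higher and 3 lower, and under normexp 1 and 2.

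Liver transcription factors gave 1 gene higher and 1 lower of 15, with a median of 0.01. Gata6, an endoderm factor, was 3.78-fold higher, and Tbx3, which acts in hepatoblast growth, 7.31-fold lower with knockdown than in its negative control. Hepatocyte enzymes and transporters gave 2 higher and 3 lower of 22. Among them the urea cycle enzyme Arg1 was 8.32-fold and the ethanol-oxidizing Cyp2e1 3.03-fold higher, while the bile acid conjugating enzyme Baat was 3.24-fold, the glutaminase Gls2 3.13-fold and the gluconeogenic enzyme Pck1 3.01-fold lower. Of 20 acute phase and IL6 signalling genes, the oncostatin M receptor Osmr was 3.71-fold higher, and Stat3, the transcription factor that carries IL6 signals to A2m in rat liver, was 4.53-fold lower beside A2m. Stat3 had log2 levels of 3.14 with overexpression and 0.57 with knockdown, against 3.04, 2.75 and 2.69 in the overexpression negative control, the knockdown negative control and normal cells. Lists of other cell types held calls in the same comparison, where 18.4% of all genes were called. Of 10 cholangiocyte and progenitor markers tested 1 was higher and 2 lower, among them the bile duct keratins Krt7, at least 4.65-fold higher, and Krt19, 5.99-fold lower. The stellate cell and fibroblast list had 2 higher and 1 lower of 19 tested, Vim and Col5a1 at 2.66-fold and 3.52-fold higher and Pdgfrb at 4.19-fold lower. Their part in the result for the secreted proteins was not tested.

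The negative control viruses were compared with normal cells as the level of change that comes with transduction or with the other scan day. Transferrin was far higher on both. It had a log2 difference of 4.25 (3.84 to 4.66) in the overexpression negative control, 19-fold, and of 4.28 (3.87 to 4.68) in the knockdown negative control, 19.4-fold. These comparisons and those of the Tmub1 viruses with normal cells share the normal array.

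In the overexpression negative control Tf was the 1 call among 9 readable genes, and Ttr had a log2 difference of 0.42 (-0.34 to 1.18) that passed the threshold with quantile normalization and the authors' values, at 1.54 and 1.51. There 17.4% of all 13491 genes were called, 7.59% higher and 9.82% lower. In the knockdown negative control 5 of 10 genes were called, against 16.6% of 13542, of which 7.04% were higher and 9.52% lower. Besides Tf, Alb was at least 4.88-fold higher, and Afp at least 4.19-fold, A2m 8.28-fold and Fgb 3.2-fold lower in the knockdown negative control than in normal cells. The Fgb call ended with quantile normalization, normexp and the authors' values, at log2 differences of -0.97, -0.35 and -0.99. With normexp the Alb and Afp calls ended too, at 1.15 and -0.22, so that Tf and A2m alone stayed called. Over all genes the share of calls that were higher than in normal cells was 43.6% for the overexpression negative control and 42.5% for the knockdown negative control, and with quantile normalization 72.6% and 69.9%.

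Serpina1 lay below normal cells in both, short of the threshold, with log2 differences of -1.25 (-1.66 to -0.85) in the overexpression negative control and -1.14 (-1.54 to -0.73) in the knockdown negative control, and it kept that sign under every scaling tried. With the percentile over detected probes it passed the threshold in both, at -1.51 and -1.32. Ahsg had differences of -0.61 and -0.51 in the same order. Hnf4a had differences of -0.56 (-1.01 to -0.11) and -0.73 (-1.17 to -0.30), of which the first turned to 0.14 with quantile normalization and 0.17 with normexp. A2m differed by -0.37 (-0.77 to 0.03) in the overexpression negative control on its first probe and by 0.32 on the other.

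Markers of other cell types stood beside the transferrin difference. Over all genes, 7.59% were called higher and 9.82% lower in the overexpression negative control than in normal cells. In the knockdown negative control these shares were 7.04% and 9.52%. The stellate cell and fibroblast list, with 19 markers tested, had 6 higher and 0 lower in the overexpression negative control than in normal cells, and 4 higher and 0 lower in the knockdown negative control. Of 10 endothelial markers, 3 were higher and 0 lower in the overexpression negative control, and 3 higher and 2 lower in the knockdown negative control. The cholangiocyte and progenitor list, with 12 tested, had 3 higher and 0 lower in the overexpression negative control, and 2 higher and 1 lower in the knockdown negative control. Among hepatic lists, enzymes and transporters had 1 higher and 6 lower of 22 tested in the overexpression negative control. In the knockdown negative control they had 3 higher and 9 lower of 24. Other secreted plasma proteins had 8 higher and 4 lower of 47, and 8 higher and 9 lower of 48, in the same order. Liver transcription factors had 1 higher and 3 lower of 18, and 2 higher and 2 lower of 18. Of 12 macrophage and leukocyte markers tested, 5 were higher and 1 lower in the overexpression negative control than in normal cells, and 6 higher and 1 lower in the knockdown negative control. The log2 of the list's summed level was 3.18 with overexpression and 3.38 with knockdown, against 3.50 in the overexpression negative control, 3.89 in the knockdown negative control and 2.26 in normal cells. Ptprc, the pan-leukocyte phosphatase CD45, was above background on the 4 transduced arrays and below it in normal cells. Aif1, a macrophage calcium-binding protein, had log2 levels of 0.23 and 0.45 with overexpression and knockdown, against 0.93, 1.22 and -2.52 in the overexpression negative control, the knockdown negative control and normal cells. Clec4f, a Kupffer cell lectin, went the other way, with a log2 difference of -1.38 from normal cells in each negative control, and Csf1r, the receptor of macrophage colony-stimulating factor, had differences of -0.65 for the overexpression negative control and -0.88 for the knockdown one. Apoe, which macrophages secrete as hepatocytes do, had levels of 2.69 and 1.90 with overexpression and knockdown, against 2.90, 3.61 and -2.21 in the overexpression negative control, the knockdown negative control and normal cells. The part of these cells in the transferrin difference was not tested.

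Genes with a pattern like each of the variable members were found by the root mean square difference of log2 levels over the 5 arrays, after each gene's own mean was taken off, among 10698 other genes above background on all arrays. For Tf the nearest were the chemokine Ccl21 at 0.0966, Igsf7 l1 at 0.110 and the chemokine Cxcl14 at 0.142. For Ahsg they were the keratin Krt19 at 0.117, Ccdc12 at 0.189 and Or4k2 at 0.200. For Serpina1 they were Or2aj4b at 0.0388, Cyp1a2 at 0.0409 and Or11g24 at 0.0472, and for Fgb Olr1143 at 0.0707, Sema4d at 0.078 and Dzip1-ps1 at 0.081. A2m had no close neighbour: the nearest, Krt15, Bnipl and Pcp2, lay at 0.825, 0.906 and 0.910. None of these neighbours is another of the 10 genes, and with 5 arrays a small distance among so many genes is a description only.

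**Figure D5:**
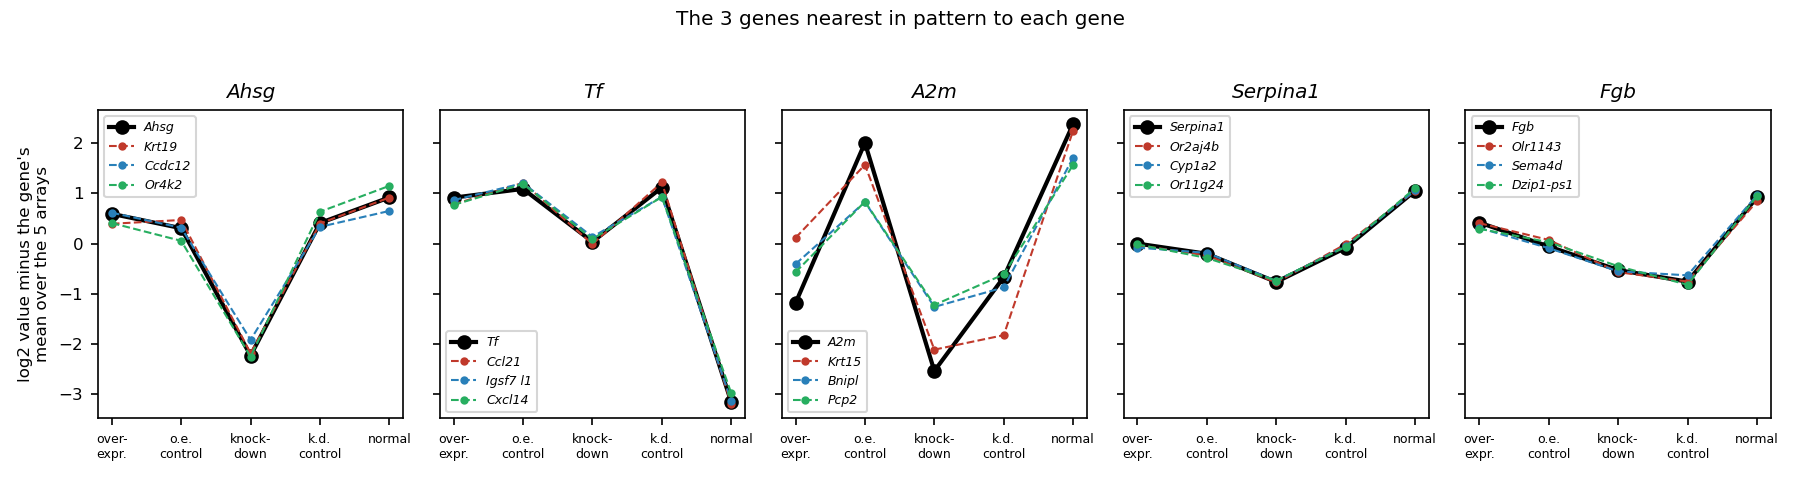
Log2 level minus the gene's own mean over the 5 arrays (y axis) on each array (x axis; o.e. is overexpression, k.d. is knockdown) for Ahsg, Tf, A2m, Serpina1 and Fgb (black) and the 3 genes nearest in pattern (colours). Tf and its neighbours share a low normal array, Ahsg and its neighbours a low knockdown array, and the lines around A2m lie apart, the nearest at a root mean square difference of 0.825.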

How the data were processed

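Gene expression was measured with 5 single-colour Agilent arrays, 1 per group. The scanner software was Agilent Feature Extraction 11.0.1.1 per the file headers, and 9.1 per the submitters' processing notes. The deposited scanner files hold intensity values already background-subtracted by that software, with no scaling between arrays. The authors' deposited log2 table, with 30423 entries and a median of 6.685 in every column, correlated with the scanner log2 values at Pearson's r of 0.99 to 0.999 across probes, which are not independent replicates. No source used here gives its software, and it served as an alternative.

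Control spots and spots marked as poor were left out and spots of a probe averaged, which left 30367 probes. Each array's 75th percentile of log2 processed signal was subtracted. The files hold no gene names, so probes were named by accession through the RefSeq table: 18005 had at least 1 gene and 12362 stayed unnamed. Genes with several probes were read from the probe with the highest mean. Calls used 2.5-fold, with the floor for dim values given above. The calling was run on simulated arrays with changes put into bright genes only, all larger than 2.5-fold. Calls of changes in dim genes, and of changes near the threshold, were not tested that way. The 95% intervals come from the scanner error. No column of per-sample values was left unmapped.

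The 10 genes and the gene lists were chosen with earlier results of these data known. Named were every one of the 10 genes, Tmub1, 18 of the 20 liver transcription factors on the array, up to 4 genes per other list and direction with the largest difference past 2.5-fold from the own negative control, up to 4 per list with the smallest range, and the 3 nearest patterns per gene that spanned 2.5-fold. The leukocyte, Il6, Stat3 and Apoe levels beside a result are given as context. Endothelial markers, 10 on the array, had 0 calls with overexpression and 1 higher and 1 lower with knockdown, each against its own negative control. Some items are not reported here.

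Alternatives were the percentile over probes detected on all arrays, quantile normalization and normexp with an offset of 50 (limma 3.58.1 in R 4.3.3, on median pixel signals), the authors' table, no floor, filters on dim probes, other probes, other control arrays and thresholds of 2-fold and 4-fold. Other steps used Python 3.11.15 and pandas 2.3.3.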

Additional observations from a re-analysis of the deposited data

Results flagged for a closer look

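Alb and Afp had differences of opposite sign with the overexpression and knockdown viruses, each against its own negative control. In each comparison 1 array was below background. The Afp values are lower bounds in log2 units. The Alb values are not bounds, because the undetected reading lay above the array's lowest detected level and was used as it stood. Alb lay at 0.43 with overexpression, short of 2.5-fold, and at -2.22 with knockdown. The first is a ratio of 25.7 to an undetected 15.9 intensity units, with scanner errors of 4.06 and 3.99. It was flagged without an interval, so its sign is not established. Afp lay at -1.55 with overexpression and at 1.09 with knockdown, the last short of 2.5-fold. The values short of the threshold turned with the control array: Alb with overexpression lay at -0.29 against the knockdown negative control, and Afp with knockdown at -0.53 against the overexpression negative control and at -0.98 against normal cells. With 1 array per group the difference between the viruses was not tested. The lowest signals that counted as well above background were 11.49 with overexpression, 13.43 with knockdown, 13.07 in the overexpression negative control and 11.32 in the knockdown negative control, in intensity units.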

How the results depend on the processing

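No paired analysis was possible because each group has 1 array. Dim genes had the least certain calls. The number of the 10 genes called with overexpression against its negative control was 2. It was 1 with normexp, with either filter on dim genes, at 4-fold or against the mean of the 3 controls, in each case A2m, and it was 0 with the other virus's control as reference and 4 with normal cells. With knockdown it was 3, and 5 at 2-fold or against normal cells. It was 2 with normexp, either filter, at 4-fold or against the mean of the 3 controls. With the percentile over detected probes or without the floor it was 4. Between the negative controls it was 2, and 1, A2m, with normexp, either filter or 4-fold. For the overexpression negative control against normal cells it was 1, and 2 with the percentile over detected probes, quantile normalization, the authors' table or 2-fold. For the knockdown negative control against normal cells it was 5, with 2 under normexp and 3 under either filter. The filters test fewer genes, and otherwise the cause was not tested. Of the alternative counts, 51 stayed within 1.5 times, with detection and the knockdown counts of 2 and 4 among them. Of 184 differences of single genes, 31 moved by more than the 95% interval of the detected spots. Of these, 25 moved with another control array and 2 with another choice of A2m probe. The others were Afp with overexpression and Alb with knockdown under normexp, at -0.51 and -1.31, and Ttr with overexpression and Afp with knockdown without the floor, at -2.77 and 3.15. Over all genes, overexpression gave 320 calls, 76 with normexp and 498 without a floor, knockdown 2359 and 1426 with normexp, the negative controls 1017 and 378 with normexp, the overexpression negative control against normal cells 2349, 1579 with quantile normalization and 982 with normexp, and the knockdown negative control against normal cells 2243 and 887 with normexp.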
